A study of Mus musculus with 3 samples.

Results

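The transcripts of IRE1α (Ern1), of its splicing substrate Xbp1 and of 2 mRNAs described as substrates of IRE1-dependent decay, Galnt10 and Pmp22, were examined in pancreatic islet cells. These 4 genes were taken by name from the authors' deposited tables of genes that differ between genotypes. All 4 were among the 8193 genes listed for beta cells, while none was among the 186 genes listed for alpha cells or the 231 listed for delta cells, so their levels in those cells were not analysed here. The 3 tables together list 8237 genes.

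Islets came from 2 mice labelled IRE1αβ-/-, a beta-cell knockout, and from 1 floxed control mouse labelled IRE1αfl/fl. All 3 mice were NOD/ShiLtJ, a strain that becomes diabetic through autoimmunity, were 5 weeks old, and had received tamoxifen at 10 mg per ml over 5 days to activate Cre recombinase. The promoter driving Cre, the exons flanked by loxP sites, and whether the control mouse carried Cre could not be read from the labels. Hand-picked islets were cultured overnight and dissociated, and single cells were captured in droplets that tag each captured transcript with 1 unique molecular identifier (UMI).

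IRE1α is a kinase and RNase in the membrane of the endoplasmic reticulum (ER). When unfolded proteins build up, it cuts a short intron out of the cytoplasmic Xbp1 mRNA, and the RTCB ligase joins the ends, which shifts the reading frame and gives the active transcription factor XBP1s. XBP1s drives genes of ER import, folding and degradation. The same RNase can cleave other mRNAs at loops like those of Xbp1, a process called regulated IRE1-dependent decay. Beta cells, which fold large amounts of proinsulin, use this pathway under physiological load.

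The sequences that IRE1α acts on are shown first, since gene-level UMI counts do not separate their spliced and unspliced forms. In the GENCODE M21 annotation (build mm10), Xbp1 lies on chromosome 11 from 5520659 to 5525893 on the plus strand, and its longest coding transcript has 5 exons and 2129 bases. The removed intron is 26 bases long, lies within the coding part of exon 4 at 5524279 to 5524304, and is followed by 1289 transcript bases. Read without removal, the open reading frame has 267 codons, and with the intron removed it has 371. In the window chr11:5524259-5524324 (plus strand, 66 bases), capitals mark the 26 bases that IRE1α removes.
Xbp1, unspliced: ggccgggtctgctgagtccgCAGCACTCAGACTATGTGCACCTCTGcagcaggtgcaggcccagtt
Xbp1, spliced: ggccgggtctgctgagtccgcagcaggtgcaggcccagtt

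Each end of the intron sits in a 7-base loop of the form CNGCAGN closed by a stem. The same form was searched on the transcript strand in every protein-coding transcript of the 4 genes, with at least 4 stem pairs next to the loop and G-U pairs allowed. Capitals mark the loop, and the flanking 8 bases on each side are in lower case.
Xbp1, first loop: tgctgagtCCGCAGCactcagac
Xbp1, second loop: gtgcacctCTGCAGCaggtgcag
Pmp22: gcgaatggCTGCAGTctgtccag
Galnt10: ccaagtgtCTGCAGAacactgcc
Ern1: gcgagaagCAGCAGActttgtca
Bloc1s1: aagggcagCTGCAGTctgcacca

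The 2 Xbp1 loops (chromosome 11, 5524276 to 5524282 and 5524302 to 5524308) had stems of 6 and 7 pairs. The Pmp22 loop lies in coding exon 4 (chromosome 11, 63151124 to 63151130) and had 4 pairs, of which 1 next to the loop counts when G-U pairs are not allowed. The Galnt10 loop (chromosome 11, 57725903 to 57725909) had 5 pairs and occurs in the 3′ UTR of a short transcript of 1745 bases, not in the main transcript of 4715 bases. The Ern1 loop (chromosome 11, 106426879 to 106426885, minus strand) is in coding exon 6 and had 4 pairs. Bloc1s1, the decay substrate used most often as a readout, is shown for comparison and had 4 pairs (chromosome 10, 128920011 to 128920017, minus strand). Its loop lies in coding exon 4 of a transcript of 550 bases and was not found in the longest transcript of 613 bases. Such loops are frequent: 1166 of 7871 listed beta-cell genes with a protein-coding transcript held at least 1 (14.8%), from 7.43% in the genes with the shortest transcripts to 23.1% in those with the longest, with the genes split into 3 groups by length. A match describes letters and is not evidence of cleavage.

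Values below are mean UMIs per cell over 829 control beta cells and over 815 knockout beta cells in which both knockout mice were pooled. A ratio is knockout over control, and brackets hold its exact 95% interval, which covers counting error only. With 1 control mouse and 1 pooled knockout value, no difference in beta cells could be set against the spread between mice, so no test was made and a fold of at least 1.5 was used as a size rule. The listed genes summed to means of 31552 UMIs in control and 24796 in knockout cells. The median listed gene had a log2 ratio of 0.54, so ratios are also given relative to that median. By the fold rule, 45.7% of the listed genes were higher and 2.47% were lower.

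Neither IRE1α nor XBP1 mRNA was lower in knockout beta cells. The gene of IRE1α, Ern1 (ENSMUSG00000020715, chromosome 11, 106394650 to 106487852, minus strand) gave 422 UMIs in the control cells, or 0.509 per cell, and 605 in the knockout cells, or 0.742 per cell. The exact intervals of the 2 means, 0.462 to 0.560 and 0.684 to 0.804, did not overlap. Only genes that the authors found different in these cells are listed, so such a gap was largely set by that choice. The ratio was 1.46 [1.29 to 1.66], which is under the size rule and 1.00 times the median ratio of all listed genes. Its main transcript has 22 exons and 6946 bases, of which 2931 are coding. The labels do not say which of these bases were sequenced or which were deleted. Reads outside the deleted exons would be counted in both genotypes, so this value does not check the deletion label, and "knockout" is used as labelled.

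Xbp1 (ENSMUSG00000020484) gave 2910 UMIs in control and 4282 in knockout cells, which is 3.51 and 5.25 UMIs per cell. The ratio was 1.5 [1.43 to 1.57], just short of the size rule before rounding, and 1.03 times the median of all listed genes. Among the 335 other listed genes whose control mean lay within 1.5-fold of that of Xbp1, the median ratio was 1.12, and 36 had a higher ratio than Xbp1. For Ern1 there were 1791 such genes with a median ratio of 1.32, of which 514 had a higher ratio. Xbp1 therefore stood in the upper part of the genes of its level, and Ern1 less so. The table does not say what share of the Xbp1 UMIs came from spliced mRNA.

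As a share of the listed UMIs, Ern1 went from 16.1 to 29.9 per 1000000 listed UMIs, and Xbp1 from 111 to 212. The insulin genes make up most of those totals and were lower in the knockout, which raises the share of other genes. With Ins1, Ins2 and Iapp left out of the totals, the log2 ratios were 0.28 for Ern1 and 0.31 for Xbp1. After centring on the median of all listed genes they were 0.00 and 0.04.

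**Figure D1:**
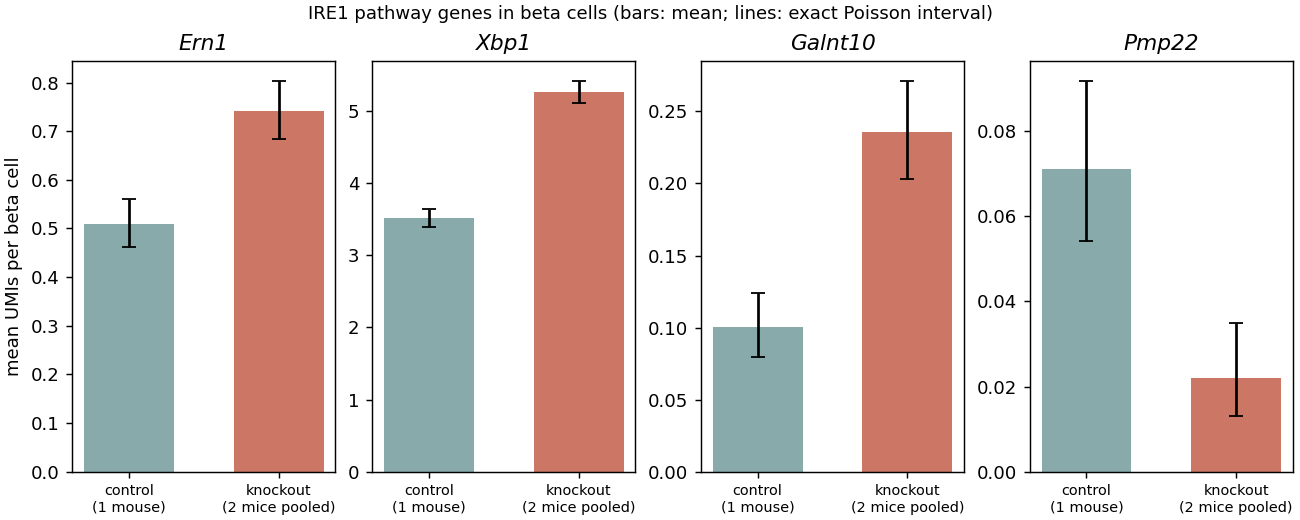
Mean UMIs per beta cell (vertical axis, a separate scale from 0 in each panel) in 1 control mouse and in the pooled cells of 2 knockout mice; lines are exact 95% Poisson intervals of the counts. Ern1, Xbp1 and Galnt10 had higher means in the knockout cells and Pmp22 a lower one, and no pair of intervals overlaps. The genes were listed because the authors found them different in these cells, so the gaps are no independent support.

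The named decay substrates went in opposite directions. Galnt10 (ENSMUSG00000020520, chromosome 11, 57645442 to 57787514, plus strand) encodes an enzyme of the Golgi that starts O-linked glycans. It gave 83 UMIs in control cells (0.10 per cell, interval 0.0797 to 0.124) and 192 in knockout cells (0.236 per cell, interval 0.203 to 0.271). The ratio was 2.35 [1.81 to 3.08], past the size rule and 1.62 times the median of all listed genes. Among the 1191 other genes within 1.5-fold of its control mean, the median ratio was 1.65 and 129 had a higher ratio. Rare genes need a larger fold to be listed, and the smallest ratio above 1 among those 1191 genes was 1.17.

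Pmp22 (ENSMUSG00000018217, chromosome 11, 63128982 to 63159547, plus strand) encodes a small membrane glycoprotein best known from myelin, much of which is degraded in the ER as it folds poorly. It gave 59 UMIs in control cells (0.0712 per cell, interval 0.0542 to 0.0918) and 18 in knockout cells (0.0221 per cell, interval 0.0131 to 0.0349). The ratio was 0.310 [0.172 to 0.534], past the size rule and 0.213 times the median of all listed genes. Only 16 of the 879 other genes of its level were lower, and 9 had a lower ratio than Pmp22. The largest ratio below 1 among those 879 genes was 0.381, as rare genes need a larger fold to be listed. Across the whole table Pmp22 was the 33rd lowest gene. At least 770 of the 829 control cells and 797 of the 815 knockout cells held no Pmp22 UMI, so the value rests on few cells.

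Pmp22 is also abundant in Schwann, mesenchymal and endothelial cells. Of 9 fixed Schwann-cell markers 3 were listed and all 3 were higher, with summed means of 0.533 in control and 0.696 in knockout beta cells, while Sox10 was not listed. The 6 listed mesenchymal markers were all higher (summed 0.0591 and 0.248), with Col1a1 and Dcn at 0 in the control. Of the endothelial markers 2 of 3 were higher (summed 0.194 and 0.379), while Cdh5, a cadherin of vessel walls, had 13 UMIs in control and 1 in knockout cells, a ratio of 0.0782 [0.00184 to 0.521]. Of the macrophage markers 3 of 4 were higher (summed 0.899 and 1.89), while Cd68 had 339 UMIs in control and 47 in knockout cells, a ratio of 0.141. Cdh5 and Cd68 were the only lower markers listed for their cell types, and the interval for Cdh5 is wide. Pecam1 of the endothelial markers was at 2.06, and Cd74 and Cd14 of the macrophage markers were at 1.96 and 4.72. Among other islet cells, the alpha-cell markers were higher in 7 of 7 (summed 65.7 and 160 UMIs per cell) and the delta-cell markers in 3 of 3 (39.6 and 64.6). Ppy, the hormone of PP cells, had 8.88 and 65.3 UMIs per cell, and the duct markers, 6 of 6 higher, summed to 43.7 and 78.9. The 3 listed red-cell genes summed to 0.0639 and 22.6. These counts of higher markers stand against 95.0% of all listed genes. The part of such transcripts in the values of the 4 genes was not tested. Of 9 beta-cell markers 6 were listed, led by Ins2 at 13373 and 9146 UMIs per cell, and all 6 were lower in the knockout.

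**Figure D2:**
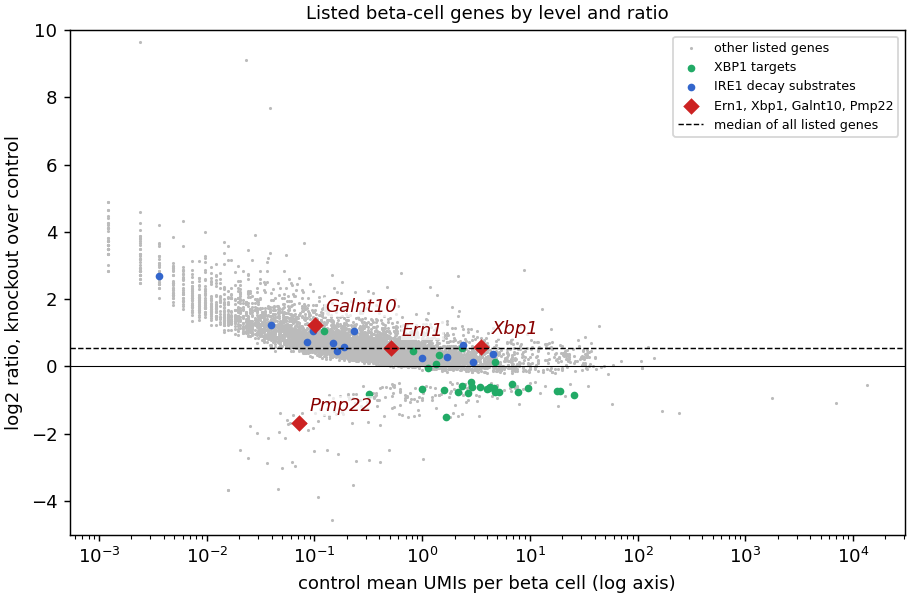
Log2 ratio of knockout over control (vertical axis) against the control mean UMIs per beta cell (horizontal log axis) for the 8090 listed genes with UMIs in both groups; the dashed line is the median of all listed genes. Ern1 and Xbp1 sit on that median, Galnt10 above it among genes of its level, and Pmp22 among the few low-level genes below 0.

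The genes whose pair of means lay nearest to a member were found by the distance in log2 control and log2 knockout means, which are 2 values per gene. For Ern1 they were Tab2 (0.507 and 0.744 UMIs per cell), Idh3b (0.507 and 0.746) and Brd3 (0.504 and 0.737). For Galnt10 they were Xpc (0.101 and 0.239), Ccdc136 (0.0989 and 0.239) and Fyb (0.0977 and 0.231). Near Pmp22 were Prelid2 (0.0748 and 0.0221), Ccl4 (0.0627 and 0.0233) and Diras2 (0.0869 and 0.0233). Near Xbp1 were Bace2 (3.43 and 5.42), Ftl1-ps1 (3.83 and 5.09) and Rps27rt (3.6 and 5.77), the last pair being close copies of other genes whose reads the counting may split.

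The wider set of decay substrates described in other cells was mostly higher, as were most listed genes. Of 27 substrates in the list, 15 were listed for beta cells, and 14 of them had more UMIs per knockout cell, against 95.0% of all listed genes. By the size rule 8 were higher and 1, Pmp22, was lower, against 45.7% and 2.47% of all listed genes. The median log2 ratio was 0.64 against 0.54 for all listed genes, and 9 of the 15 lay above that overall median. Without Galnt10 and Pmp22 the median of the other 13 was also 0.64. These counts do not set the decay substrates apart from the rest of the table.

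Bloc1s1, a subunit of the BLOC-1 complex in lysosome trafficking, had 81 UMIs in control and 166 in knockout cells, a ratio of 2.08 [1.59 to 2.75]. Its means were 0.0977 and 0.204 UMIs per cell, close to those of Galnt10. St3gal5, the synthase of ganglioside GM3, had 0.232 and 0.480 UMIs per cell (2.07 [1.74 to 2.48]). Dgat2, which makes triglyceride, was at 2.37 [1.56 to 3.68], and Gpc3, a glypican, at 6.44 [1.90 to 34.0] from only 3 control UMIs. These 4 genes and Galnt10 were the 5 with ratios over 2.

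The remaining 9 had smaller ratios, all above 1. Oat (ornithine aminotransferase) was at 1.65 and the kinase gene Prkcd at 1.62. Cd59a, which protects cells from complement, was at 1.49, and the ubiquitin ligase gene Mkrn2 at 1.38. Tapbp, which loads peptides onto MHC class I, had 4.55 and 5.93 UMIs per cell, a ratio of 1.30 [1.25 to 1.36]. Ergic3, of the ER to Golgi compartment, was at 1.20, the phosphatase scaffold gene Ppp2r1a at 1.19 and Rtn4, which shapes ER tubules, at 1.1 [1.04 to 1.17]. Of the 15 substrates, Bloc1s1, Dgat2, Galnt10, Pmp22 and Rtn4 held a loop of the form shown above (33.3%, against 14.8% of listed genes). The ratios of those 5 ran from 0.310 to 2.37, and Gpc3, the highest of the 15 at 6.44, held no such loop. Over all listed genes, the median log2 ratio was 0.51 for genes with such a loop and 0.53 for genes without.

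In beta cells, mRNAs of insulin and of its processing enzymes have also been described as targets of an overactive IRE1α. Of those 5 genes 4 were listed. Ins1 and Ins2 were at ratios of 0.475 and 0.684 respectively. The convertase gene Pcsk2 had 15.6 and 15.1 UMIs per cell (0.968 [0.944 to 0.992]), and Cpe, the carboxypeptidase that trims proinsulin, 21.4 and 27.7 (1.30 [1.27 to 1.32]). All 4 lay below the median of all listed genes. Among listed genes with at least 10 UMIs per control cell the median ratio was 1.16, which Cpe exceeded and Ins1, Ins2 and Pcsk2 did not. Pcsk1 was not analysed here.

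Of the other ER stress sensors, Ern2, Eif2ak3 (PERK), Atf6 and Atf6b were not listed. Of 26 genes that bind, control or act with IRE1α 18 were listed, and 12 of these lay below the median of all listed genes. As UMIs per cell 16 were higher and 2 lower, against 95.0% higher among all listed genes. By the size rule 5 were higher and 1 lower, against 45.7% and 2.47%. The median log2 ratio was 0.32, which is -0.22 relative to all listed genes. These counts are no result about the group.

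Among these, the tRNA ligase complex that joins the cut Xbp1 mRNA was represented by 5 genes. Rtcb, its catalytic subunit, had 0.700 and 1.03 UMIs per cell, a ratio of 1.47 [1.32 to 1.64]. Fam98b was at 1.45, Rtraf at 1.27, and Ddx1 and Zbtb8os at 1.17 each. All 5 were higher as UMIs per cell, and Rtcb alone lay above the median of all listed genes.

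Txnip, an inhibitor of thioredoxin whose mRNA IRE1α is known to raise by degrading a microRNA, had the highest ratio in this list. Its means were 0.376 in control and 1.34 in knockout cells, a ratio of 3.55 [3.13 to 4.04]. Ptpn1, a phosphatase of the ER membrane that affects IRE1 signalling, went from 2.02 to 3.47 (1.71 [1.61 to 1.82]). The adaptor gene Traf2, which links IRE1α to the JNK kinases, was at 1.53 [1.26 to 1.86] and the JNK gene Mapk9 at 1.51 [1.29 to 1.77]. Bax, which binds IRE1α and acts in apoptosis, was at 1.53 [1.47 to 1.60]. These 5 were the genes past the size rule on the higher side.

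The chaperone gene Hspa5 (BiP), which holds IRE1α inactive, had 9.68 and 11.2 UMIs per cell, a ratio of 1.16 [1.13 to 1.20]. Tmbim6, an inhibitor of IRE1α, was at 1.18 [1.13 to 1.23]. On the lower side were Sec61a1, the pore of the translocon to which IRE1α binds, at 3.43 and 2.26 UMIs per cell (0.659 [0.621 to 0.699]), and Ufm1, a ubiquitin-like modifier, at 0.707 [0.672 to 0.744]. Hspa5 and Tmbim6 were higher as UMIs per cell and below 0 after centring on the median of all listed genes. Both had 3 to 10 UMIs per control cell, where the median ratio of listed genes was 1.10, under that of either gene.

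**Figure D3:**
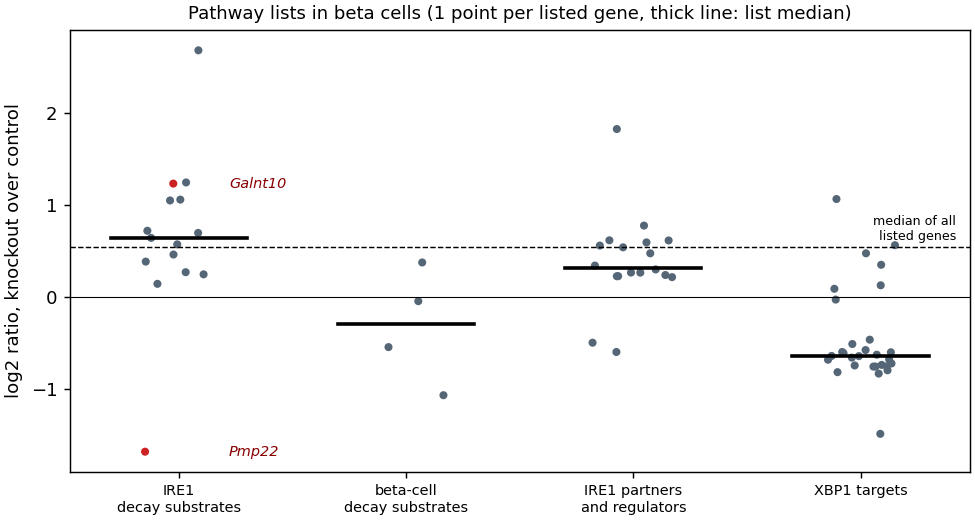
Log2 ratio of knockout over control in beta cells (vertical axis) for each listed gene of 4 pathway lists; thick lines are list medians and the dashed line is the median of all listed genes. The decay substrates spread around the overall median with Pmp22 alone below 0, while 23 of 29 XBP1 targets lie below 0.

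Most listed genes that XBP1s drives were lower in knockout beta cells. Xbp1 itself had a ratio 1.03 times the median of all listed genes. Of 47 XBP1 targets in the list 29 were listed for beta cells, and 23 of these were lower, against 5.04% of all listed genes. The list was chosen with earlier results of these data known, so it is not independent of them. Targets that the authors did not find different are left out of these counts. That 5.04% depends on level, and most of the 29 had control means of at least 1 UMI per cell. Of all listed genes at 1 to 3, 3 to 10 and at least 10 UMIs per control cell, 86.8%, 68.7% and 71.1% were higher. By the size rule 19 of the 29 targets were lower and 1 higher, against 2.47% and 45.7% of all listed genes. Their median log2 ratio was -0.64 (-1.18 relative to all listed genes). The median ratio was 1.45 over all listed genes, but 1.20, 1.10 and 1.16 at those 3 levels. The gap to genes of like level is thus smaller than -1.18 states. The shares of 2.47% and 45.7% were not split by level. With means scaled to the listed total, 1 of the 29 was lower by the size rule and the median was -0.30, against a median of 0.89 for all listed genes. Summed over the 29 genes, the means were 146 UMIs in control and 96.2 in knockout cells.

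Fkbp11, a prolyl isomerase of the ER, was lowest with 1.66 and 0.588 UMIs per cell, a ratio of 0.355 [0.319 to 0.394]. Next were the translocon subunit gene Sec61g at 0.560, the disulfide isomerase gene Pdia5 at 0.566 [0.460 to 0.694] and Spcs3, of the signal peptidase, at 0.574. Dnajb9, a co-chaperone that returns BiP to IRE1α and is often read as a measure of XBP1s activity, went from 4.71 to 2.80 UMIs per cell (0.595 [0.565 to 0.627]); it was named after its value was seen. At the other end were Derl3 (0.123 and 0.258 UMIs per cell, 2.09 [1.65 to 2.68]), Herpud1 (1.48 [1.39 to 1.57]), Sel1l (1.39 [1.26 to 1.54]) and Pdia4 (1.27 [1.18 to 1.38]). Derl3, Herpud1 and Sel1l act in ER-associated degradation and Pdia4 in disulfide formation. Only Derl3 and Herpud1 lay above the median of all listed genes.

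Alpha and delta cells, which the label does not name as targets of the deletion, had 1 value per mouse, in columns that name the knockout group and a number but not the mouse. Their tables were used for XBP1 targets, as they list none of Ern1, Xbp1, Galnt10 and Pmp22 and no other gene of the decay list. The control mouse is the same one as in the beta-cell comparison, so the 3 cell types share it. Only genes that the authors found different in those cells are listed, which fixes no direction but leaves out the other members of each list. Both knockout columns lay on 1 side of the control for all but 22 of 186 alpha-cell and 25 of 231 delta-cell genes. Agreement of the 2 columns is thus common among listed genes and adds little support for any 1 of them.

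In alpha cells, 8 XBP1 targets were listed, and all 8 were lower than the control in both knockout columns, against 51.1% of the 186 listed genes. Ssr2, of the translocon-associated complex, had 7.39 UMIs per control cell and 4.65 and 4.50 in the knockout columns (4.57 ± 0.109, SD, n = 2). Spcs2, of the signal peptidase, had 3.52 against 2.31 and 2.11. Pdia6, a disulfide isomerase that binds and attenuates IRE1α, had 3.79 against 2.43 and 2.37. The knockout columns lay close together and below the control for each of these genes. Manf, a secreted ER stress protein, had 7.11 against 4.90 and 4.49, and Spcs1 4.68 against 3.11 and 3.12. Ostc, of the oligosaccharyltransferase, had 4.43 against 3.15 and 3.14, Sec61b 14.7 against 11.8 and 10.8, and Ssr4 12.4 against 9.17 and 9.93. By the size rule 5 of the 8 were lower, against 30.1% of listed genes. None was after scaling to the listed total, and 1 was when Ins1, Ins2 and Iapp were left out of that total. The median log2 ratio was -0.59, against -0.29 for all 186 genes.

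Markers of other cell types were lower in the mean of the same alpha cells. The 3 listed beta-cell markers summed to 434 UMIs per control cell against 251 and 304 in the knockout columns, and Iapp among them had 126 against 54.7 and 69.6. The 2 listed delta-cell markers summed to 52.5 against 19.5 and 51.9, with Rbp4 at a ratio of 0.552. Ppy had 427 against 341 and 323, and the 3 listed duct and epithelial markers summed to 10.7 against 6.96 and 8.94. No marker of the alpha-cell list was listed. The part of these transcripts in the values of the XBP1 targets was not tested.

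In delta cells, 7 XBP1 targets were listed and all 7 were lower in both knockout columns, against 17.7% of the 231 listed genes. Fkbp11 had 4.08 UMIs per control cell against 2.38 and 1.1 in the knockout columns. Manf had 13.4 against 9.67 and 7.62, Ssr2 9.41 against 6.51 and 5.08, and Spcs2 7.84 against 5.22 and 4.63. The second knockout column was the lower one for every one of these genes. Edem2, which marks misfolded glycoproteins for degradation, had 2.59 against 1.71 and 1.22. Sdf2l1, a partner of BiP, had 3.89 against 3.12 and 1.56, and Tram1, of the translocon, 3.33 against 2.38 and 1.67. All 7 were lower by the size rule in the mean, against 16.0% of listed genes, 3 were without the second knockout column, and 1 was after scaling to the listed total. The median log2 ratio was -0.72, against 0.42 for all 231 genes. Ptpn1 was the 1 IRE1 partner listed, with 0.495 UMIs per control cell against 1.01 and 1.05, higher in both columns as were 71.4% of the listed genes.

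Markers of other cell types also differed in the delta cells, in both directions. Iapp, the one listed beta-cell marker, had 1825 UMIs per control cell against 797 and 698 in the knockout columns. Of the alpha-cell markers, Gcg (glucagon) had 10.0 against 159 and 63.5 and Ttr 1.01 against 4.36 and 2.58, while Gc had 3.12 against 1.41 and 1.37. Rbp4, from the delta-cell list, had 136.9 against 84.2 and 69.1. Of the duct and epithelial markers, Cldn7 had 15.6 against 7.39 and 7.81, Epcam 18.4 against 9.65 and 11.2, and Muc1 0.723 against 0.696 and 0.962. The macrophage marker C1qa had 1.04 against 0.833 and 0.346. Both knockout columns were thus above the control for Gcg and Ttr and below it for Iapp, Gc, Rbp4, Cldn7, Epcam and C1qa. The part of these transcripts in the values of the XBP1 targets was not tested.

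**Figure D4:**
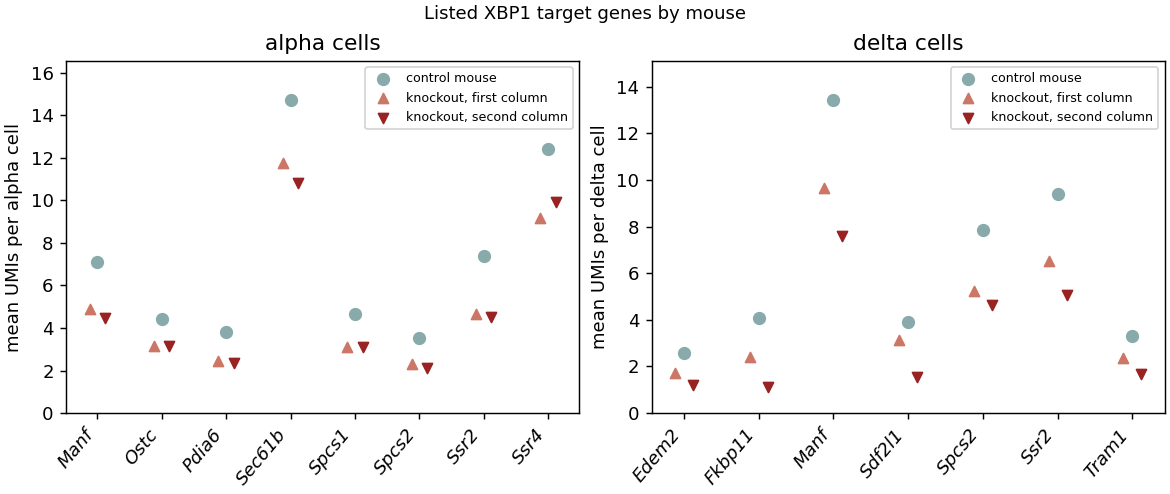
Mean UMIs per alpha cell (left) and per delta cell (right) of the listed XBP1 target genes in the control mouse (circles) and in the 2 knockout columns (triangles). Every triangle lies below the circle of its gene, for 8 genes in alpha and 7 in delta cells.

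A test over mice with edgeR (quasi-likelihood, on recovered UMIs) called none of the 8 XBP1 targets in alpha cells, after Benjamini-Hochberg adjustment over the table, with adjusted p from 0.0729 to 0.196, and 6 of the 8 at an unadjusted p under 0.05. Of all listed alpha-cell genes, 2.15% were called lower, and 25.3% were lower at an unadjusted p under 0.05. In delta cells it called 4 of the 7, namely Fkbp11 (adjusted p 0.00175), Ssr2 (0.0124), Manf (0.0137) and Spcs2 (0.0258), and 9.52% of all listed genes lower. None of the XBP1 targets was called in either cell type when the offset was the listed total instead of the cell number. In delta cells Iapp is a large part of that total, which was 3674 UMIs per control cell against 3070 and 2643 in the knockout columns with Iapp, and 1850 against 2273 and 1945 without it. With the total without Ins1, Ins2 and Iapp as offset, an alternative chosen after seeing the data, edgeR called Fkbp11 (adjusted p 0.00449), Manf (0.00699), Ssr2 (0.0162) and Spcs2 (0.0391) in delta cells and none in alpha cells. Scaled to that total, all 7 targets in delta cells were lower by the size rule, with a median log2 ratio of -0.92. With that total, the shares of all listed genes called or past the size rule were not computed, so these counts have no background. The edgeR test has 1 residual degree of freedom and takes the spread of the lone control mouse to equal that of the knockouts. It was run on genes already chosen on these cells, so its p-values are too small.

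Only 3 genes of the pathway lists appeared in all 3 tables. Manf had ratios of 0.640, 0.661 and 0.644 for beta, alpha and delta cells. Spcs2 was at 0.646, 0.628 and 0.628 in the same order, and Ssr2 at 0.591, 0.619 and 0.616. The 3 comparisons share the control mouse. Control means ran from 7.11 UMIs per alpha cell to 13.4 per delta cell for Manf, from 3.52 to 7.84 for Spcs2, and from 5.17 per beta cell to 9.41 per delta cell for Ssr2.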

How the data were processed

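Islet cells of 2 knockout mice and 1 control mouse were profiled in 10X Genomics droplets. The submitters' processing notes name Cell Ranger 3.0.0 and the build mm10. No source used here gives the cell filters, the doublet treatment, the cell typing or the authors' test. The authors deposited a signal value per gene and cell type, which the values show to be mean UMIs per cell: each value times the cell number gave a whole UMI count within 0.001, for 99.99% of control and 100% of knockout beta-cell values and 100% in alpha and delta cells. Means were not scaled for depth. The deposited p-values and q-values come from cells and were not used as tests; they show that 18527 beta-cell genes were tested and 44.2% listed. The header of the alpha-cell table is shifted by 1 column.

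Ratios used no pseudocount, with 3 UMIs as the floor for a group at 0. Gene positions and transcripts came from GENCODE M21, which held 8187 of the 8193 beta-cell identifiers. Intervals are exact at 95% (Clopper-Pearson on the split of UMIs, Poisson for a mean). edgeR 4.0.16, scipy 1.17.1 and Python 3.11.15 were used, and the scripts were tested on simulated data. Genes and gene lists were chosen with earlier results of these data known. Named were the 4 genes, all listed decay substrates, the ends of the other pathway lists and the 3 nearest genes per member; the RTCB complex genes other than Ddx1, Mapk9, Tmbim6 and Dnajb9 were chosen after their values were seen. Alternatives were 3 scalings, a pseudocount of 0.0519, a filter on low values, a fold of 2 and leaving out each knockout column; added afterwards were 2 other edgeR offsets, scaling without Ins1, Ins2 and Iapp in alpha and delta cells, other stem rules and the decay list without the 2 members. Some members of the lists are not reported by name here.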

Additional observations from a re-analysis of the deposited data

How the results depend on the processing

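The directions of Galnt10 and Pmp22 held under the 3 scalings and the pseudocount, and 90 alternative values in all gave 35 within the main value's interval or margin, 54 outside it and 1 with a reversed sign; unless a sentence says otherwise, the cause was not tested. For Ern1 the log2 ratio was 0.0040 centred on the median, 0.89 scaled to the listed total and 0.28 scaled to the total without Ins1, Ins2 and Iapp. For Xbp1 the same settings gave 0.042, 0.93 and 0.31. Galnt10 was at 0.69 when centred, and Pmp22 at -0.73 with the pseudocount, which pulls low means together. Scaled to the listed total, 3 of the 4 genes were higher by the fold rule in place of 1. Under that scaling 97.2% of all listed genes were higher, and their median log2 ratio of 0.89 is itself past the fold rule.

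The median of the decay substrates was 0.10 centred, 0.99 scaled to the total, 0.38 scaled without the insulins and Iapp, 0.47 with the pseudocount and 0.33 with the filter on low values. Their count past the fold, 8 in the main setting, was 3 centred, 13 scaled to the total, 5 without the insulins and Iapp, 5 with the pseudocount, 5 at a fold of 2 and 2 with the filter. For IRE1 partners the median reversed to -0.22 when centred, and was 0.67 scaled to the total and 0.052 without the insulins and Iapp. Their count past the fold was 1 centred, 13 scaled to the total, 1 without the insulins and Iapp, 3 with the pseudocount and 1 at a fold of 2. Both counts of 13 stand against a median log2 ratio of 0.89 for all listed genes under that scaling, and are no result about either list.

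XBP1 targets kept a median below 0 in every setting tried. In beta cells it was -1.18 centred, -0.30 scaled to the total and -0.91 without the insulins and Iapp, and the count past the fold was 1 scaled to the total and 1 at a fold of 2. In alpha cells the median was -0.30 centred and -0.42 scaled to the total, and -0.62 to -0.56 leaving out 1 knockout column; the count was 0 centred, 0 scaled, 1 scaled without the insulins and Iapp, 0 at a fold of 2, 0 by edgeR with each of 3 offsets, and 4 leaving out either column. In delta cells the median was -1.14 centred, -0.37 scaled and -0.92 scaled without Iapp, and -0.997 to -0.53 leaving out 1 column; the count was 1 scaled, 1 at a fold of 2, 4 by edgeR, 0 by edgeR with the listed total as offset, 4 by edgeR with that total without Iapp, and 3 to 7 leaving out 1 column. Loops with a stem were found in 3.94% of genes with Watson-Crick pairs alone and in 6.15% with at least 5 pairs. Of the 4 genes, Pmp22 rests on the fewest UMIs, 59 and 18. No paired analysis was possible because the control group holds 1 mouse and the knockout columns carry no number shared with it.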
